A study of Mus musculus with 12 samples.

Results

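The genes described are 10 of the 48709 gene intervals counted in the dissected cardiogenic region of mouse embryos: 4 Notch receptors (Notch1, Notch2, Notch3 and Notch4), 3 of their ligands (Dll4, Jag1 and Jag2) and 3 genes of the Hey family (Hey1, Hey2 and Heyl). They were chosen by name and not by a cut on their values, though with earlier results of these data known. Each name matched 1 interval. Total RNA was sequenced at 4 stages of heart formation, embryonic day 8 (E8), E8.5, E9.5 and, later, E14, with 3 libraries per stage and 12 in all. The labels give no strain, genotype or treatment, name no separate litters or embryos, and give the tissue at every stage as cardiogenic region. The p-values therefore measure only the spread between these libraries, which may be technical.

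Notch receptors are cell-surface proteins that are activated by Delta-like and Jagged ligands on a neighbouring cell. Proteases then release the receptor's intracellular part, which enters the nucleus, joins the DNA-binding protein RBPJ and a Mastermind protein, and switches on targets such as the Hes and Hey repressors. In the embryonic heart the pathway is known for its work in endocardium, in trabeculation, in the valve cushions and in coronary vessels, while Hey2 is also a gene of the compact ventricular myocardium.

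RBPJ binds a short motif that is written here as CGTGGGAA, with TGGGAA as its core. A promoter entry of RefSeq (build GRCm38.p6, 250 bases before to 50 bases after the annotated start) was matched for 8 of the 10 genes, all but Hey1 and Heyl. Hey2 was the only one of these 8 whose window held CGTGGGAA on either strand, and it held it 2 times, so that window is shown. It lies at chr10:30842734-30843033 on the minus strand. It is printed 5′ to 3′ along the gene, with the motif and its reverse complement in capitals.
Hey2: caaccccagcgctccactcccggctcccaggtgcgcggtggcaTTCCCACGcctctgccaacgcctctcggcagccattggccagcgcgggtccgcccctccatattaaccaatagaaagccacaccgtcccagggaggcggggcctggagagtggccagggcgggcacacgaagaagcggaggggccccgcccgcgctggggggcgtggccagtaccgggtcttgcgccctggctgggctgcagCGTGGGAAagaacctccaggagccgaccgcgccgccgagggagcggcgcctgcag
The first match, in reverse orientation, began 207 bases before the start, and the second, in forward orientation, began 5 bases before the start and ran across it. Among 32851 promoter windows of this length, 0.734% held CGTGGGAA at least once and 0.0122% (4 windows) held it 2 times. The shorter GTGGGAA, which lies within it, was in 6.38% of windows and the core TGGGAA in 25.6%. The windows of Notch1, Notch2, Notch3, Notch4, Dll4, Jag1 and Jag2 held none of these 3 motifs. The Notch1 window (chr2:26503773-26504072, minus strand) lies inside the counted Notch1 interval, whose 5′ end is at 26516663. The sequence at that end was therefore not searched. A match is a description of the sequence; no binding was measured here.

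Total counts ran from 56574386 to 122785175 per library. The 10 cardiomyocyte markers summed to between 12700 and 23000 CPM (counts scaled to the library's size) and all 10 had counts in every library, while 9 neural tube markers summed to at most 10.4 CPM. Markers of other tissues shifted with stage. The mean summed level of 8 foregut endoderm and epithelium markers was 281, 265, 117 and 10.6 CPM at E8, E8.5, E9.5 and E14. Means rose from E8 to E14 for 8 erythroid markers (536 to 17800 CPM) and 6 epicardial markers (9.59 to 178 CPM). Their part in the changes of the 10 genes was not tested. One library stood apart: in E8.5 replicate 3 the 8 markers of visceral endoderm and liver summed to 1660 CPM, against 55.3 and 150 CPM in the other E8.5 libraries and at most 131 CPM at the other stages. Results on E8.5 are therefore given without it where that changes a call. Pairs of E8 libraries differed by a mean chi-square per gene of 8.19 to 21.5, and pairs of E8.5 libraries by 82.6 to 196. Because whole tissue was sequenced, fewer cells of a type and less RNA per cell cannot be told apart.

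The summed level of the 10 genes lay between 323 and 332 CPM in the E8 libraries, between 315 and 356 at E8.5, between 264 and 314 at E9.5 and between 285 and 325 at E14. The make-up of each group differed more between stages. Between E9.5 and E14 the ligands Jag1 and Jag2, the receptor Notch3 and Hey1 fell, while the ligand Dll4, the receptors Notch4 and Notch2, Hey2 and Heyl rose, the rise of Notch2 only without an allowance for gene length. Notch1 was not called in any comparison. All 10 genes passed the filter on low counts. Differences were tested with edgeR's quasi-likelihood F-test, adjusted over 28846 genes and called at an adjusted p under 0.05. Each is a log2 fold change with its standard error (SE), from 3 libraries per stage.

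**Figure D1:**
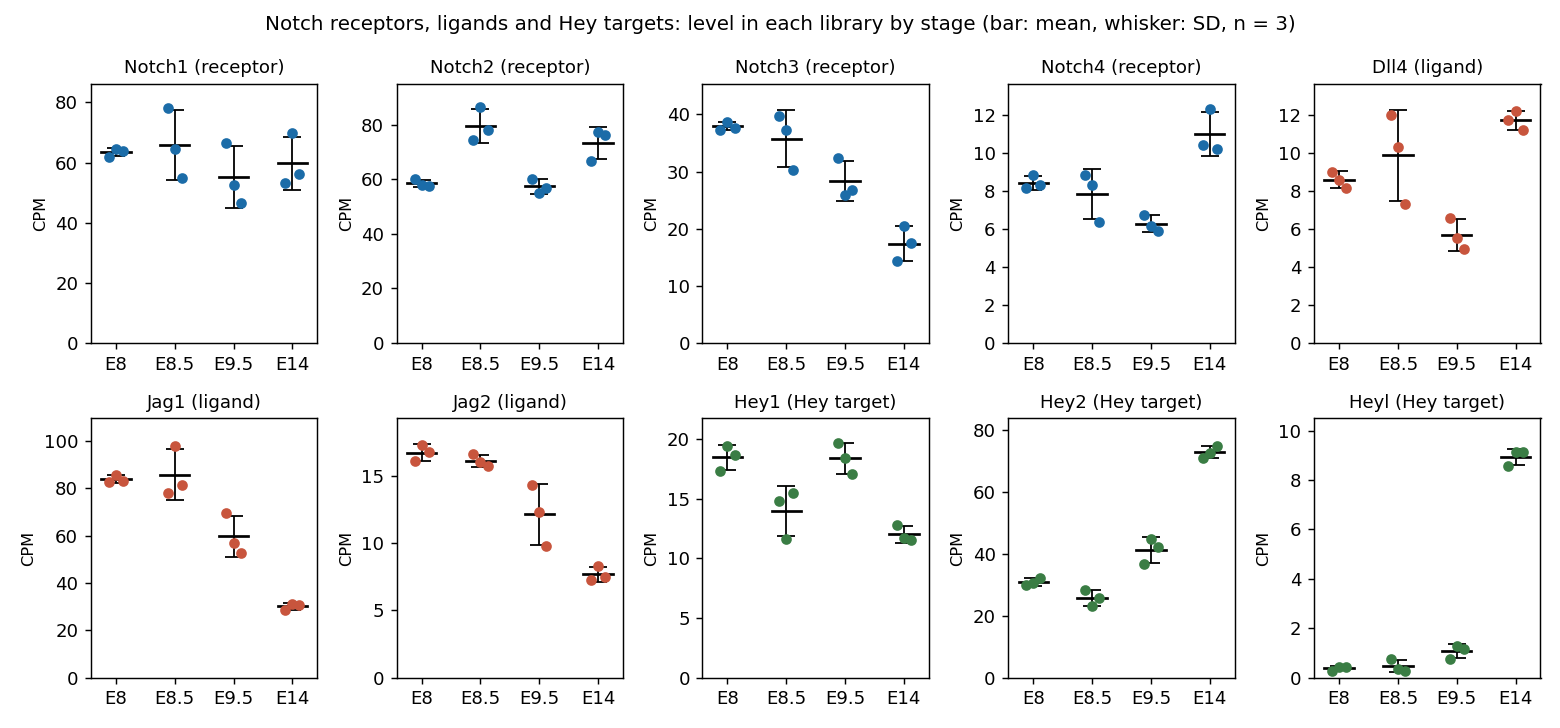
Level of each of the 10 genes in each of the 12 libraries, in CPM on a linear axis from 0, by stage; points are libraries, the bar is the mean and the whisker the SD of 3. Jag1 lies lowest at E14 (28.6 to 31.3 CPM), Hey2 and Heyl lie highest there (71.2 to 75.1 and 8.56 to 9.13 CPM), and the Notch1 ranges of neighbouring stages overlap.

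Notch1, the receptor best known in endocardium and arterial endothelium, is a protein-coding gene on chromosome 2 (26457903 to 26516663, minus strand, GRCm38). It had 62.0, 64.6 and 63.9 CPM at E8, 78.2, 64.6 and 54.9 at E8.5, 66.6, 52.6 and 46.6 at E9.5, and 53.2, 69.8 and 56.2 at E14. The ranges of all stages next to each other in order of their means overlapped, and the highest stage mean was 1.19 times the lowest. No comparison was called: the log2 fold change was 0.05 ± 0.15 (edgeR adjusted p = 0.846) from E8 to E8.5, -0.25 ± 0.15 (0.21) to E9.5, 0.11 ± 0.15 (0.567) to E14, and -0.09 ± 0.15 (0.642) from E8 to E14. None of the 19 alternative analyses called it in any of the 5 comparisons.

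Notch2, a receptor with roles in outflow tract smooth muscle and neural crest derivatives, lies on chromosome 3 (98013527 to 98150361, plus strand). Its 136.84 kb interval is the longest of the 10. It had 60.0, 58.1 and 57.4 CPM at E8, 74.5, 86.5 and 78.0 at E8.5, 60.3, 55.0 and 56.9 at E9.5, and 66.6, 77.5 and 76.2 at E14. The E8.5 and E14 libraries were thus above all of those at E8 and E9.5. Notch2 fell by 0.47 ± 0.08 from E8.5 to E9.5 (edgeR adjusted p = 0.00114) and rose by 0.36 ± 0.08 from E9.5 to E14 (0.00298) and by 0.33 ± 0.08 from E8 to E14 (0.00372). All these calls ended when each library's trend of counts with gene interval length was taken out: the changes were then -0.15 (edgeR adjusted p = 0.1), 0.05 (0.515) and 0.09 (0.269).

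The rise of Notch2 from E8 to E8.5 was 0.45 ± 0.08 (edgeR adjusted p = 0.0418). It stayed called in 7 of 19 alternatives. It was lost with the length trend taken out (0.18, adjusted p = 0.139) and without any one of the 3 E8 libraries, E8.5 replicate 2, E9.5 replicate 2 or 3, or any one of the 3 E14 libraries (0.38 to 0.46, edgeR adjusted p of 0.0513 to 0.217).

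Notch3, the receptor of vascular smooth muscle cells and pericytes, lies on chromosome 17 (32120820 to 32166880, minus strand). It had 37.3, 38.7 and 37.7 CPM at E8, 39.8, 37.2 and 30.2 at E8.5, 32.4, 25.9 and 26.8 at E9.5, and 14.3, 20.4 and 17.4 at E14. Every E14 library was below every other library. Notch3 fell by 0.70 ± 0.14 from E9.5 to E14 (edgeR adjusted p = 0.00104) and by 1.12 ± 0.14 from E8 to E14 (1.92e-05), and both calls held in all 19 alternatives. The change from E8.5 to E9.5 was -0.33 ± 0.13 (0.0687), and was called without E8.5 replicate 3 (-0.41, 0.022) or without E9.5 replicate 1 (-0.44, 0.0332).

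The fall of Notch3 from E8 to E9.5 (-0.42 ± 0.13, edgeR adjusted p = 0.0389) was lost without any one of the 3 E8 libraries, E9.5 replicate 2 or 3, or E14 replicate 3 (0.0536 to 0.143). An antisense gene, Gm17276, overlaps Notch3 over 21020 bases, and its count was 0.359 to 0.404 times that of Notch3 at every stage. The strand setting of the counting is not given in the sources used here, so reads of the 2 genes cannot be told apart. The 10 markers of smooth muscle and pericytes did not move one way at E14 beside the fall of Notch3. From E9.5 to E14, 25.4% of all genes were called higher and 24.6% lower. Of the 10 markers, 5 rose, led by the potassium channel gene Kcnj8 (6.24 ± 0.24), and 3 fell, led by Tagln (-3.12 ± 0.08). Their summed level went from 2230 to 2470 CPM down to 1190 to 1280 CPM, and none was at 0. Their part in the fall of Notch3 was not tested.

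Notch4, a receptor largely of endothelial cells, lies on chromosome 17 (34564268 to 34588503, plus strand). It had 8.12, 8.82 and 8.30 CPM at E8, 8.85, 8.31 and 6.36 at E8.5, 6.75, 6.16 and 5.89 at E9.5, and 10.4, 12.3 and 10.2 at E14. The 3 E14 libraries were the highest of the 12. Notch4 rose by 0.81 ± 0.12 from E9.5 to E14 (edgeR adjusted p = 0.000201), a call that held in all 19 alternatives. From E8.5 to E9.5 it changed by -0.32 ± 0.12 (0.0589), and it was called without E8.5 replicate 3 (-0.43, 0.00512).

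The difference between E8 and E9.5 for Notch4 (-0.42 ± 0.12, edgeR adjusted p = 0.0262) was lost without any one of the 3 E8 libraries or E9.5 replicate 2 or 3 (0.0527 to 0.0995). That between E8 and E14 (0.38 ± 0.12, 0.0177) was lost without E8 replicate 1 (0.0598), E8 replicate 3 (0.0561) or E14 replicate 2 (0.121).

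Dll4, the Delta-like ligand of arterial endothelium and early endocardium, lies on chromosome 2 (119325784 to 119335962, plus strand). It had 9.01, 8.58 and 8.13 CPM at E8, 12, 10.3 and 7.29 at E8.5, 6.59, 5.53 and 4.92 at E9.5, and 11.7, 12.2 and 11.2 at E14. The E9.5 libraries were the 3 lowest of the 12, and E14 overlapped E8.5 only. Dll4 fell by 0.80 ± 0.16 from E8.5 to E9.5 (edgeR adjusted p = 0.00287) and rose by 1.05 ± 0.16 from E9.5 to E14 (0.000198). Both calls held in all 19 alternatives.

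From E8 to E8.5 the change of Dll4 was 0.20 ± 0.16, and it was called only without E8.5 replicate 3 (0.35, edgeR adjusted p = 0.0423), the library with the lowest Dll4 of that stage. Compared with E8, Dll4 was lower at E9.5 (-0.59 ± 0.16, adjusted p = 0.0178) and higher at E14 (0.45 ± 0.16, 0.0268). The first call was lost without E8 replicate 1 or 2 or E9.5 replicate 2 or 3 (0.0501 to 0.0803). The second was lost without E8 replicate 2 or 3 or any one of the 3 E14 libraries (0.0553 to 0.0962).

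Jag1, the Jagged ligand of endocardium, outflow tract and smooth muscle, lies on chromosome 2 (137081456 to 137116644, minus strand). It had 82.9, 85.8 and 83.0 CPM at E8, 78.0, 98.0 and 81.3 at E8.5, 69.5, 57.0 and 52.6 at E9.5, and 28.6, 31.3 and 30.8 at E14. From E8.5 on, each stage lay below the one before with no overlap. Jag1 fell by 0.52 ± 0.11 from E8.5 to E9.5 (edgeR adjusted p = 0.00352) and by 0.98 ± 0.11 from E9.5 to E14 (1.7e-05). From E8 to E14 it fell by 1.47 ± 0.11 (3.84e-07), the largest fall among the 10 genes, and the highest stage mean was 2.84 times the lowest. Every one of these calls held in all 19 alternatives, and from E8 to E8.5 Jag1 changed by 0.03 ± 0.11.

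Jag2, the other Jagged ligand, lies on chromosome 12 (112908590 to 112929495, minus strand) and followed the same order of stages from E8.5 on at a lower level. It had 16.1, 17.3 and 16.8 CPM at E8, 16.6, 16.0 and 15.7 at E8.5, 14.3, 12.3 and 9.79 at E9.5, and 7.25, 8.32 and 7.49 at E14. The E9.5 and E14 libraries did not overlap with each other or with the earlier stages. Jag2 fell by 0.65 ± 0.12 from E9.5 to E14 (edgeR adjusted p = 0.000565) and by 1.12 ± 0.12 from E8 to E14 (5.31e-06), in all 19 alternatives. The fall from E8.5 to E9.5 (-0.41 ± 0.11, 0.0153) was lost when those stages were fitted alone (0.0901) and without E9.5 replicate 3 (-0.28, 0.0534).

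Hey1, a repressor gene active in atrial and endocardial cells, lies on chromosome 3 (8663359 to 8667256, minus strand). It had 17.3, 19.4 and 18.7 CPM at E8, 14.8, 11.6 and 15.5 at E8.5, 19.7, 18.4 and 17.1 at E9.5, and 12.8, 11.7 and 11.5 at E14. The E8 and E9.5 ranges overlapped and lay above those of E8.5 and E14. From E9.5 to E14 Hey1 fell by 0.62 ± 0.11 (edgeR adjusted p = 0.000452), and from E8 to E14 by 0.62 ± 0.11 (0.00029), both in all 19 alternatives. The rise from E8.5 to E9.5 was 0.40 ± 0.11 (0.0124), lost when those stages were fitted alone (0.0574). The change from E8 to E8.5 (-0.40 ± 0.10, 0.0585) was called by DESeq2 (-0.42, 0.00781) and without E8.5 replicate 3 (-0.52, 0.00503).

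Hey2, the repressor gene of the ventricle whose promoter is shown above, lies on chromosome 10 (30832359 to 30842801, minus strand). It had 29.9, 30.6 and 32.3 CPM at E8, 28.5, 23.1 and 25.8 at E8.5, 36.9, 44.9 and 42.2 at E9.5, and 71.2, 72.6 and 75.1 at E14. It was the only one of the 10 genes whose 4 stages did not overlap at all. Hey2 rose by 0.68 ± 0.09 from E8.5 to E9.5 (edgeR adjusted p = 0.000291), by 0.82 ± 0.09 from E9.5 to E14 (1.46e-05) and by 1.24 ± 0.09 from E8 to E14 (3.12e-07), in all 19 alternatives. The change from E8 to E8.5 (-0.26 ± 0.09, 0.0944) was called by DESeq2 (-0.28, 0.0288) and without E8.5 replicate 3 (-0.30, 0.0397).

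Ventricular markers moved in both directions beside the rise of Hey2, in a step with 25.4% of all genes called higher and 24.6% lower. Of 5, Myl2 (1.27 ± 0.20) and Myl3 rose and Hand1 (-2.55 ± 0.11), Mycn and Irx4 fell from E9.5 to E14. Their summed level lay between 802 and 851 CPM at E8 and between 597 and 870 at E8.5, then between 1380 and 1960 at E9.5 and between 3750 and 3820 at E14, and none was at 0. Their part in the change of Hey2 was not tested.

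Heyl, the third Hey gene, known from vascular smooth muscle, lies on chromosome 4 (123233556 to 123249875, plus strand). It had 0.286, 0.429 and 0.431 CPM at E8, 0.739, 0.361 and 0.289 at E8.5, 0.774, 1.30 and 1.18 at E9.5, and 8.56, 9.13 and 9.12 at E14. These levels rest on 30 to 54 counts per library at E8 and on 451 to 845 at E14. The E14 mean was 23.4 times that at E8, the widest range of stage means among the 10 genes. Heyl rose by 3.04 ± 0.31 from E9.5 to E14 (edgeR adjusted p = 7.52e-06) and by 4.54 ± 0.33 from E8 to E14 (3.19e-07), in all 19 alternatives. The rise from E8.5 to E9.5 (1.22 ± 0.31, 0.0101) was lost when those stages were fitted alone (1.25, 0.0548), while that from E8 to E9.5 (1.5 ± 0.32, 0.00508) held in all. Of the 10 smooth muscle and pericyte markers given beside Notch3, 5 rose and 3 fell over the interval in which Heyl rose most. In that step 25.4% of all genes were called higher and 24.6% lower. The mean summed level of the 10 markers fell from 2370 CPM at E9.5 to 1250 CPM at E14, with Acta2 (1770 and 632 CPM) as its largest part. The part of these markers in the rise of Heyl was not tested.

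Counted by comparison, 1 of the 10 genes was called higher at E8.5 than at E8 (Notch2) and 0 lower, where 0.891% of all genes tested were called higher and 0.291% lower. This single call is the one that most alternatives lose, and without E8.5 replicate 3 the counts were 2 higher (Dll4 joining Notch2) and 2 lower (Hey1 and Hey2), where 14.2% of all genes were then called higher and 15.7% lower. By DESeq2 1 was higher and 2 were lower, against 8.18% and 7.19% of all genes. In addition, 2 of the 10 had lower ranges without overlap, beside 13.5% of all genes. The median change of the 10 was -0.01, beside 0.02 over all genes.

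From E8.5 to E9.5 the 3 Hey genes rose and 4 genes fell (Notch2, Dll4, Jag1 and Jag2), against 18.4% and 18.5% of all genes. All 3 ligands were among those that fell. The median of the 10 was -0.32, beside -0.03 over all genes. Fitted without the other stages, only Hey2 remained called higher.

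From E9.5 to E14, 5 rose (Notch2, Notch4, Dll4, Hey2 and Heyl) and 4 fell (Notch3, Jag1, Jag2 and Hey1), where 25.4% of all genes were called higher and 24.6% lower. Each of the 3 groups of genes held both rises and falls. The median of the 10 was 0.24, beside 0.01 over all genes, and all 9 calls had ranges without overlap between the stages, beside 32.3% of all genes with a higher and 30.7% with a lower range.

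The comparisons with E8 share libraries with those above and are not independent of them. At E9.5, 2 genes were higher than at E8 (Hey2 and Heyl) and 5 lower (Notch3, Notch4, Dll4, Jag1 and Jag2), against 13.6% and 11.3% of all genes. Without any one of E8 replicates 1 to 3 or E9.5 replicates 2 and 3, 2 or 3 of those 5 stayed lower. At E14, 5 were higher (Notch2, Notch4, Dll4, Hey2 and Heyl) and 4 lower (Notch3, Jag1, Jag2 and Hey1), against 31.5% and 29.2%. Without E8 replicate 3 or without E14 replicate 2, Notch4 and Dll4 were no longer called and 3 stayed higher.

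**Figure D2:**
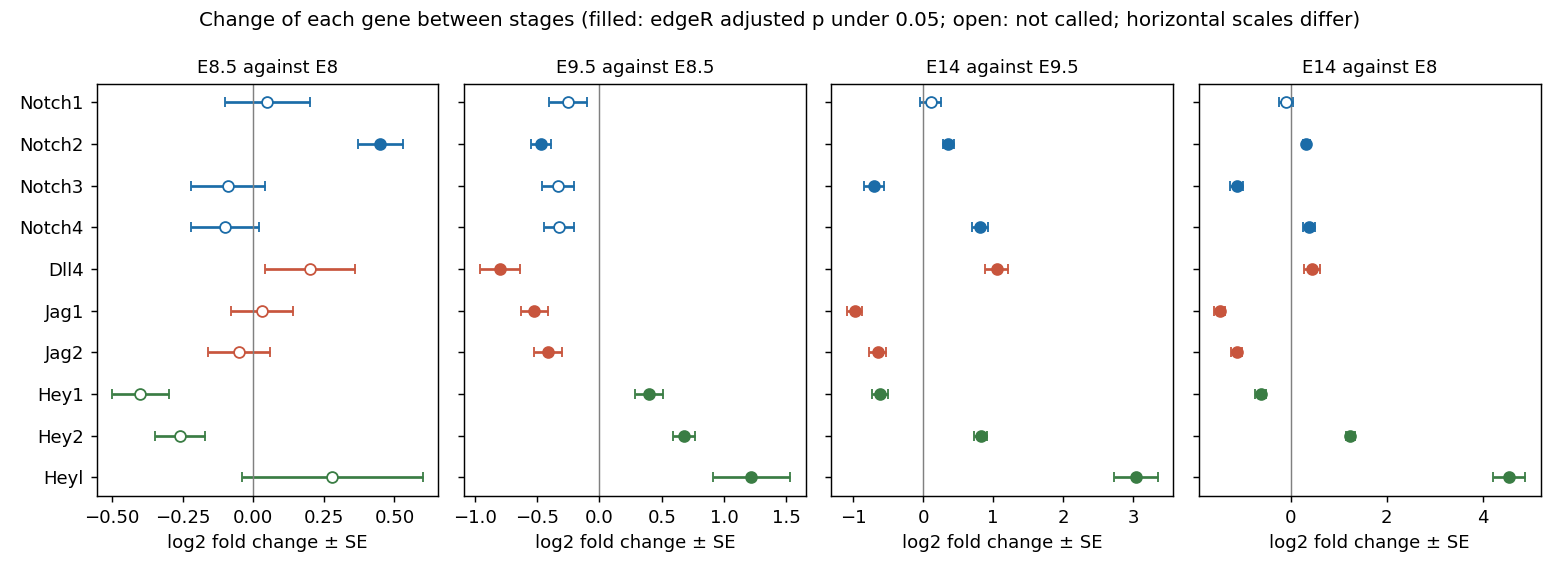
Log2 fold change of each of the 10 genes between stages, on a linear axis whose range differs by panel; points are the edgeR estimates, whiskers their SE, filled points have an adjusted p under 0.05. From E9.5 to E14, 9 of 10 points are filled, 5 above 0 and 4 below, with Heyl (3.04) farthest to the right and Jag1 (-0.98) farthest to the left.

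Levels of different genes were compared as CPM per kb of annotated exon. At E8 Jag1 had the highest of these levels (14.4 ± 0.285, SD, n = 3), followed by Hey2 (6.73), Hey1 (5.66), Notch2 (5.42), Notch3 (4.69) and Notch1 (4.46). Jag2 (2.4), Dll4 (2.23), Notch4 (1.04) and Heyl (0.0747) came below. Only Hey1 and Notch2, and Jag2 and Dll4, were neighbours with overlapping ranges. At E14 Hey2 led (15.9 ± 0.435), followed by Notch2 (6.81), Jag1 (5.18), Notch1 (4.2), Hey1 (3.68), Dll4 (3.04), Notch3 (2.15), Heyl (1.75), Notch4 (1.36) and Jag2 (1.1), with overlap only between Notch1 and Hey1 and between Notch3 and Heyl. Between E8 and E14 Hey2 thus took the first place from Jag1.

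Per kb of the whole gene interval, the appropriate length if intronic reads were counted, Hey1 led at E8 (4.74) and Hey2 at E14 (6.99), and Notch2 was behind Jag2 at E8 (0.427 against 0.8). The order between genes therefore depends on the length used. A fixed length cancels in the change of 1 gene between stages. Taking out each library's trend with length did alter such changes, as for Notch2.

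**Figure D3:**
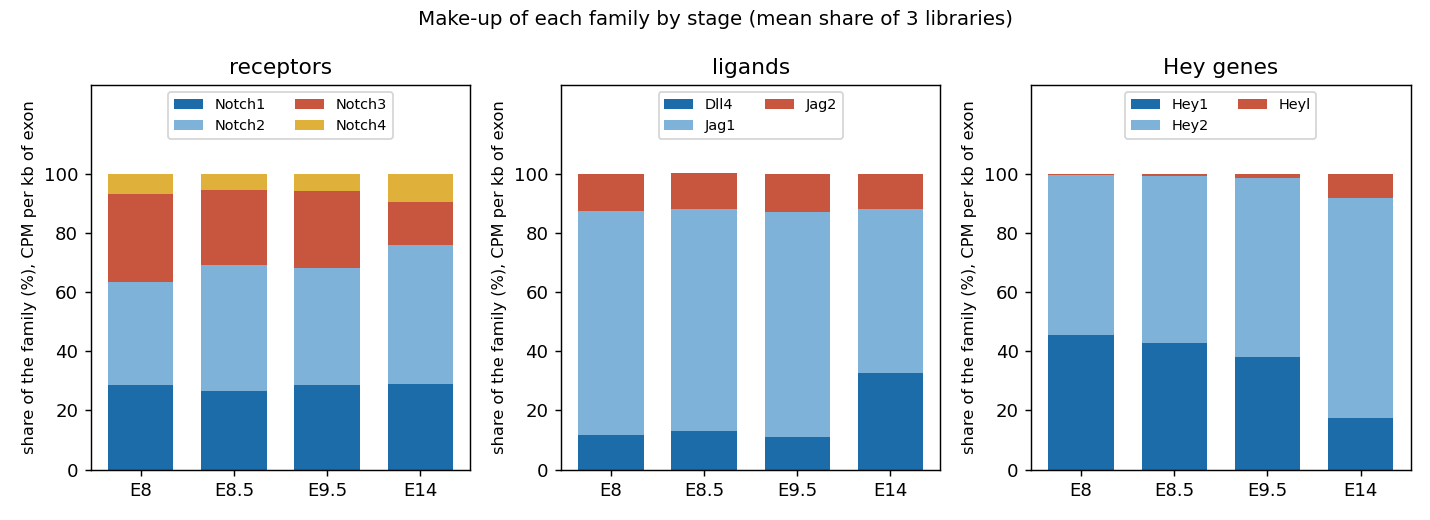
Share of each gene in the summed level of its group (receptors, ligands, Hey genes), in percent of CPM per kb of exon, as the mean of 3 libraries per stage; bars are stacked from 0 to 100. At E14 Notch3 (14.7%), Jag1 (55.6%) and Hey1 (17.3%) are smaller and Notch4 (9.38%), Dll4 (32.6%) and Heyl (8.2%) larger than at any earlier stage, and among earlier stages Notch2 is larger at E8.5 (42.7%) than at E8 (34.7%).

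On the exon scale, Notch3 made up 30.0% ± 0.312 (SD, n = 3) of the 4 receptors at E8 and 14.7% ± 1.0 at E14. Notch2 went from 34.7% to 47.0% and Notch4 from 6.68% to 9.38%, while Notch1 was at 28.6% and 28.9%. Among the 3 ligands, Dll4 held 11.7% ± 0.614 in E8 libraries, 13.1% ± 3.13 in those of E8.5, 11% ± 0.0857 in those of E9.5 and 32.6% ± 1.24 in those of E14, as Jag1 went from 75.7% to 55.6%. Jag2 kept 12.6% at E8 and 11.8% at E14. Among the Hey genes, Hey1 went from 45.4% to 17.3%, Hey2 from 54.0% to 74.5% and Heyl from 0.597% to 8.2%.

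Ratios within a library do not depend on library scaling. The ratio of Dll4 to Jag1, per kb of exon, lay between 0.148 and 0.165 at E8, between 0.136 and 0.233 at E8.5, between 0.142 and 0.147 at E9.5 and between 0.55 and 0.62 at E14. The ratio of Notch4 to Notch3 was 0.218 to 0.229, 0.211 to 0.224, 0.209 to 0.239 and 0.586 to 0.73 in the same order. Both ratios were higher in every E14 library than in any earlier one. Before E14, the E8 and E9.5 ranges of the ratio of Dll4 to Jag1 did not overlap, and those of the ratio of Notch4 to Notch3 did. The ratio of Hey2 to Hey1 lay between 1.12 and 1.23 at E8, between 1.18 and 1.41 at E8.5, between 1.33 and 1.75 at E9.5 and between 3.97 and 4.63 at E14. Per kb of gene interval its means were 0.626, 0.693, 0.843 and 2.27, so that Hey2 was below Hey1 on that scale until E9.5 and above it at E14.

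Endothelial markers rose at E14 as well, beside the rises of Dll4 and Notch4. From E9.5 to E14, 13 of 18 endothelial and endocardial markers rose and 1 fell (median 0.59), beside 25.4% and 24.6% of all genes. Robo4 (2.79 ± 0.19) led the rises, and the 1 that fell was Etv2 (-6.51 ± 0.39), a factor of the earliest endothelial cells. Pecam1 rose by 1.12 ± 0.09 and Cdh5 by 0.92 ± 0.10. The summed level of the 18 lay between 779 and 783 CPM at E8, between 709 and 896 at E8.5, between 677 and 765 at E9.5 and between 1120 and 1170 at E14, and none was at 0 in any stage.

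Relative to the mean log2 level of these 18 markers in the same library, Dll4 was at -1.35 ± 0.10 (SD, n = 3) in E8 libraries, -1.13 ± 0.26 in those of E8.5, -1.92 ± 0.15 in those of E9.5 and -1.30 ± 0.05 in those of E14. Notch4 was at -1.38 ± 0.03, -1.44 ± 0.17, -1.77 ± 0.04 and -1.40 ± 0.14. With the 18 markers the E8 and E14 ranges of both genes overlapped and E9.5 was lowest. Set against Pecam1, Cdh5 and Tie1 alone, the difference of E14 from E8 was -0.29 for Dll4 and -0.36 for Notch4, in place of 0.05 and -0.02. The sign of the difference thus changed with the markers for Dll4. For Notch4 it was negative with the smaller set, while with the 18 markers it was smaller than the SD of 0.14 at E14. The 18 markers include Etv2, with stage means of 2.51 CPM at E8 and 0.0206 CPM at E14. That fall lowers the mean log2 level of the 18 at E14, and the difference was not computed without Etv2. Pecam1, Cdh5 and Tie1 were all among the markers that rose from E9.5 to E14. Set against these 3, Dll4 was at -3.33 ± 0.13 at E9.5 and -3.15 ± 0.04 at E14. Notch4 was then at -3.18 ± 0.02 and -3.25 ± 0.13, so that its mean was lowest at E14 and not at E9.5. The E9.5 and E14 ranges of both genes overlapped with this smaller set. The part of endothelial cells in the rise of Dll4 and Notch4 was not otherwise tested.

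The genes with larger changes kept their direction on this scale. Jag1 went from 1.94 ± 0.02 at E8 to 0.07 ± 0.11 at E14, Jag2 from -0.39 to -1.91, Notch3 from 0.80 to -0.74 and Hey1 from -0.24 to -1.26. Hey2 went from 0.50 to 1.34 and Heyl from -5.86 to -1.69. Notch1, with no call in CPM, was at 1.54 ± 0.01 at E8 and 1.04 ± 0.21 at E14, without overlap. Its own log2 fold change between these stages was -0.09 ± 0.15, while the mean log2 level of the 18 markers went from 4.45 to 4.85. The lower relative value of Notch1 thus comes mostly from the rise of the marker mean.

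Other genes of the pathway were described in 7 lists of 48 genes, of which 46 passed the filter (Hes2 and Hes3 did not). From E8 to E8.5 1 was called higher and 1 lower, from E8.5 to E9.5 5 higher and 10 lower, and from E9.5 to E14 16 higher and 10 lower. From E8 to E14 18 were higher and 14 lower. The shares of all genes given above are those of the same analysis, and the medians were 0.05, -0.15, 0.12 and 0.04. Without E8.5 replicate 3 the first 2 comparisons gave 10 higher and 6 lower, and 7 higher and 15 lower. The shares of all genes were then 14.2% higher and 15.7% lower, and 23.5% and 20.4%. With the length trend taken out, the step from E9.5 to E14 gave 14 higher and 14 lower, against 25.1% and 25.6% of all genes.

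**Figure D4:**
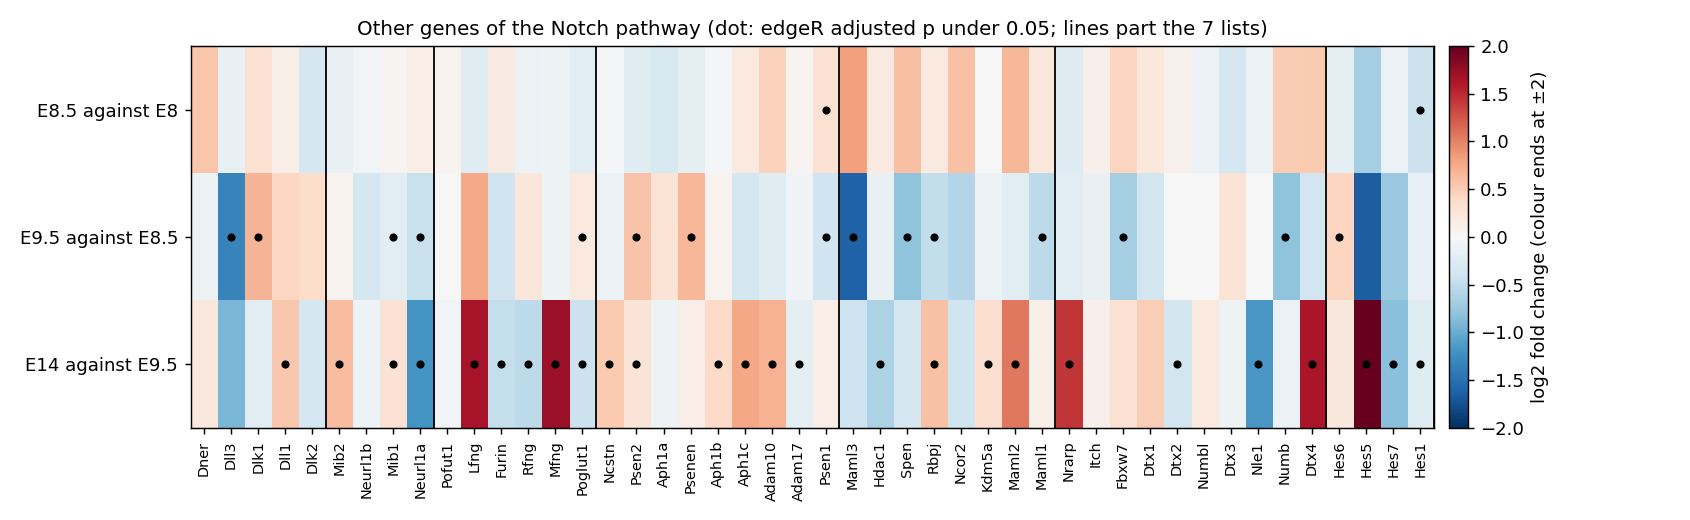
Log2 fold change of 46 other Notch pathway genes (columns, grouped in 7 lists parted by lines) in 3 comparisons of neighbouring stages (rows); colour runs from blue (lower) to red (higher) and ends at ±2, and dots mark an edgeR adjusted p under 0.05. Dots are sparse at E8.5 (2 genes) and densest from E9.5 to E14 (26 genes). Of all genes, 0.891% were called higher and 0.291% lower at E8.5 against E8, and 25.4% and 24.6% at E14 against E9.5. From E9.5 to E14, Mfng (1.73), Lfng (1.65), Dtx4 (1.64) and Nrarp (1.43) are dark red and Hes5 (2.33, on 1 to 13 counts per library) lies beyond the end of the colours.

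Of the 5 other ligand and ligand-like genes, Dll1, a Delta-like ligand, was at 2.89 CPM (stage mean) at E8 and 6.05 at E14 (1.06 ± 0.19, edgeR adjusted p = 0.000404). Dlk1, a non-canonical ligand and growth regulator, rose from E8.5 to E9.5 (0.68 ± 0.16, 0.00783). Dll3, a Delta-like protein of somite formation, stayed under 0.5 CPM in every library. Of the 4 genes for ligand endocytosis, a step that ligands need to activate a receptor, Mib2 rose from E9.5 to E14 (0.62 ± 0.09, 0.000153) and Neurl1a fell (-1.20 ± 0.10, 2.04e-06), both in all 19 alternatives. Mib1, the main ubiquitin ligase for ligands in the heart, rose in that step (0.29 ± 0.06, 0.00291), but not with the length trend taken out (0.07, 0.418).

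Of the 6 genes for receptor glycosylation and furin cleavage, 2 rose and 3 fell from E9.5 to E14, beside 25.4% and 24.6% of all genes. The rises were in 2 of the 3 Fringe sugar transferases, which are known to shift a receptor's response from Jagged towards Delta-like ligands. Mfng went from 2.04 ± 0.145 to 6.77 ± 0.345 CPM (SD, n = 3), a log2 fold change of 1.73 ± 0.12 (edgeR adjusted p = 5.07e-07). Lfng went from 1.03 to 3.24 CPM (1.65 ± 0.33, 0.00122). The third, Rfng, fell from 7.22 to 5.05 CPM (-0.52 ± 0.12, 0.00289), and Poglut1, which adds O-glucose to the receptor, fell by 0.43 ± 0.06 (0.000132). These 4 calls held in all 19 alternatives. The fall of Furin in that step (-0.48 ± 0.16, 0.0235) was lost without E9.5 replicate 1, E14 replicate 1 or E14 replicate 3 (up to 0.104).

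Of the 9 receptor protease genes, 5 rose and 1 fell from E9.5 to E14, beside 25.4% and 24.6% of all genes. Adam10, the protease that makes the first ligand-dependent cut, rose from 66.7 to 108 CPM (0.70 ± 0.15, edgeR adjusted p = 0.00192), and Aph1c, of the gamma-secretase complex, had the largest rise (0.77 ± 0.19, 0.00559). Both held in all 19 alternatives. The rise of Ncstn, another gamma-secretase gene, is uncertain, since the opposite-strand gene Copa overlaps it with 5.48 times its count.

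Of the 8 genes of the nuclear complex and its corepressors, 0 rose and 4 fell from E8.5 to E9.5, beside 18.4% and 18.5% of all genes. From there to E14, 3 rose and 1 fell, beside 25.4% and 24.6% of all genes. Rbpj, the DNA-binding factor, had stage means of 47.8, 54.3, 38.5 and 58.1 CPM, so that, as for Notch2, E9.5 was lowest and E8.5 and E14 were highest. Its fall to E9.5 (-0.50 ± 0.08, edgeR adjusted p = 0.000697) was not called with the length trend taken out (-0.12, 0.188), and its rise to E14 (0.59 ± 0.08, 5.37e-05) was smaller but called (0.22, 0.0169). Of the Mastermind coactivators, Maml2 rose to E14 (1.05 ± 0.21, 0.00134), and Maml3 fell from E8.5 to E9.5 (-1.61 ± 0.26, 0.00104), both in all 19 alternatives. The corepressor subunit Hdac1 fell to E14 (-0.64 ± 0.12, 0.000674).

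Of the 10 genes for receptor turnover and inhibition, 2 rose and 2 fell from E9.5 to E14, beside 25.4% and 24.6% of all genes. Nrarp, a target and feedback inhibitor of the pathway, had 4.61 to 4.97 CPM at E9.5 and 12.1 to 14.2 CPM at E14 (1.43 ± 0.10, edgeR adjusted p = 4.75e-07). Dtx4, an E3 ligase gene of the Deltex family, rose by 1.64 ± 0.23 (9.37e-05), and Nle1 fell by 1.16 ± 0.08 (4.2e-07). These calls held in all 19 alternatives, but the interval of Nrarp is shared with Gm38287 on the opposite strand, with a count equal to that of Nrarp (ratio 1.0).

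The Hes family holds other classical targets of the pathway, such as Hes1, and both directions occurred within the family. Hes1 fell from 16.6 to 17.8 CPM at E8 to 8.74 to 11 at E14 (-0.84 ± 0.09, edgeR adjusted p = 8.72e-06), and Hes6 rose over the same span (0.45 ± 0.08, 0.000649). Hes5 stayed at or below 0.146 CPM and Hes7 at or below 0.79 CPM in every library. At these levels Hes5, with 1 or 2 counts per library at E9.5 and 4, 13 and 7 at E14, was called higher at E14 than at E9.5 (2.33 ± 0.65, adjusted p = 0.0104), a call lost without E14 replicate 2 (0.0574). Hes5 overlaps Gm20421 on the opposite strand, so reads of the 2 may not be told apart.

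For each of the 10 genes the nearest patterns were sought among 10705 genes with a mean of at least 5 CPM, by Pearson's r of log2 CPM over the 12 libraries. These values describe libraries that share stage and depth, and carry no test. Nearest to Jag1 were Ephb2 (0.995), Axin1 (0.995) and Amph (0.994), and to Jag2 Kcnf1 (0.985), Ptprf (0.983) and Efs (0.983). Dll4 was nearest to Extl3 (0.982), Fbn1 (0.981) and Prox1 (0.957). Notch4 was nearest to Tbc1d16 (0.953), the endothelial cadherin gene Cdh5 (0.952) and Bcl2l11 (0.952), and Notch3 to Nlgn2 (0.986), Casc3 (0.981) and Plekhg2 (0.98).

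Notch2 was nearest to Atp9b (0.974), Kmt2c (0.968) and Tbc1d5 (0.966). The nearest genes to Notch1 were less close, at 0.893 for Tmem2, 0.885 for Rara and 0.865 for Hdac7. Hey2 was nearest to Cd81 (0.995), Sh3glb2 (0.994) and the respiratory chain gene Cox4i1 (0.994). Heyl was nearest to Nr1d1 (0.997), Litaf (0.996) and Pdk4 (0.994), and Hey1 to Taf13 (0.978), Tubg1 (0.964) and Rbm8a (0.962).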

How the data were processed

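The authors deposited raw read counts in whole numbers, 1 column per library, for 48709 gene intervals of GRCm38, per the file headers. The submitters' processing notes name STAR 2.5.0 and Cufflinks 2.2.1 without their roles; how reads were counted, with which strand setting and annotation, is not given in the sources used here. Types, strands and exon lengths came from GENCODE M21 (42778 intervals identical, 5649 matched by symbol and overlap, 282 unmatched). Promoters came from RefSeq.

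The test was edgeR 4.0.16 (R 4.3.3) on all 12 libraries: 28846 genes passed filterByExpr, scaling used TMM factors (0.913 to 1.07), and a robust quasi-likelihood model with 1 mean for each stage had a common dispersion of 0.0362. A gene was called where its p, adjusted by Benjamini-Hochberg over all genes, was under 0.05. CPM use the TMM-scaled library sizes. Total counts per library bound the precision, and libraries of 1 stage differed beyond counting noise. Each was counted as 1 sample, although the labels do not say whether libraries of 1 stage are independent. Replicate numbers did not mark shared batches in the labels.

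The 19 alternatives were RLE factors, no filter, a replicate block, DESeq2 1.42.0, the compared stages alone, an offset for each library's trend with gene interval length, small structural RNAs left out, and each of the 12 libraries left out in turn. The rule for named genes took all 10 genes, the other pathway genes, the called marker of each list with the largest rise or fall, and the 3 genes nearest each of the 10 by correlation. Pecam1, Cdh5, Myl3, Mycn and Irx4 were named after their values were seen. The genes and lists were chosen with earlier results of these data known. Tables and figures were made with Python 3.11, pandas 2.3.3 and matplotlib 3.10.9.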

Additional observations from a re-analysis of the deposited data

How the results depend on the processing

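Of 50 results (10 genes in 5 comparisons), none changed direction with a call in any of the 19 alternatives. RLE factors, no filter on low counts and leaving out small structural RNAs changed 0 of the 50 calls. For E8.5 against E8 the genes called higher went from 1 to 0 with a replicate block, with the compared stages alone and with the gene length trend taken out, and to between 0 and 2 with a library left out; those called lower went from 0 to 2 by DESeq2 and to between 0 and 2 with a library left out. Over all genes that comparison had 341 calls, against 190 with no filter, 3 with the replicate block, 4436 by DESeq2, 9 with the compared stages alone, 155 with the length trend taken out, 592 without small structural RNAs, and 0 (without E8 replicate 3) to 8865 (without E8.5 replicate 3) with a library left out. For E9.5 against E8.5 the genes called higher went from 3 to 1 with the compared stages alone, and over all genes from 10659 to 6099, or to between 7044 (without E9.5 replicate 3) and 13015 (without E8.5 replicate 3). The cause of these shifts was not tested.

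The replicate block lost 2 of the calls, Notch2 at E8.5 against E8 and Notch3 at E9.5 against E8. Deviations of same-numbered libraries correlated at -0.084 to 0.134, and 1 of 18 pairs was above 0.1. Those of libraries with other numbers correlated at -0.173 to 0.19. Whether same-numbered libraries share a batch cannot be told from these values or from the labels. For E9.5 against E8 the genes called lower went from 5 to between 2 and 5 with a library left out, and the calls over all genes from 7163 to between 4641 and 9409. For E14 against E8 those called higher went from 5 to between 3 and 5. The ratio of Hey2 to Hey1 moved from 1.19, 1.32, 1.61 and 4.33 per kb of exon to 0.626, 0.693, 0.843 and 2.27 per kb of gene interval. Heyl at 30 to 54 counts per library at E8 is the gene most limited by depth.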
